A study of Mus musculus with 2 samples.

Results

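Megakaryocyte and platelet genes were examined in LSK cells, the lineage-negative, Sca-1-positive and c-Kit-positive bone marrow fraction in which blood stem cells and multipotent progenitors are found. The set was 10 genes: Pf4, Ppbp, Vwf, Clu, Gp1ba, Gp1bb, Gp9, Gp5, Gp6 and Treml1. They were found by the gene name printed for each spot, which gave 9 of the 10. Pf4 has no spot under that name. Its spot carries the older name Cxcl4 and the transcript accession NM_019932, which RefSeq assigns to Pf4, so it was taken through the accession. The 10 genes had 12 probes among the 41170 probes with an unflagged spot on both arrays, which carried 27595 gene names.

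The series holds 1 array of PAD4-/- LSK cells and 1 array of WT LSK cells. Both samples are labelled C57BL/6 and came from mouse bone marrow by flow sorting. PAD4, encoded by Padi4, converts arginine to citrulline in histones and other proteins. The age of the mice, the number of mice per array, the deleted part of Padi4 and whether the deletion was limited to a cell type are not stated in the labels. Messenger RNA was measured on 1-colour arrays, and a probe counts as detected where the scanner software calls it well above background. Of all probes, 64.1% were detected on the PAD4-/- array and 63.9% on the WT array. The 3 Padi4 probes kept 21.2% to 24.2% of the WT level on the PAD4-/- array. The arrays also differed in sex-linked transcripts: the brightest Xist probe had a signal of 16255 on the PAD4-/- array and 3.93, not well above background, on the WT array. The Y-linked Ddx3y was well above background on both, with 1297 on the PAD4-/- array and 3455 on the WT array at its brighter probe, so transcripts of both kinds were present on the PAD4-/- array. The part of these differences in the values below was not tested. Kit and Ly6a, which encode the sort markers c-Kit and Sca-1, were detected on both arrays. So were Cd34 and Ptprc, which are not part of the LSK definition above. The log2 differences of these genes lay between -0.14 and 0.07. Each genotype has a single array, so there is no replicate check, no test and no p-value, and the number of arrays limits the precision.

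Platelets are shed by megakaryocytes and plug damaged vessels. They are caught by von Willebrand factor, encoded by Vwf, which binds a surface complex made from the products of Gp1ba, Gp1bb, Gp9 and Gp5. Collagen is sensed by glycoprotein VI, the product of Gp6. Their alpha granules hold the chemokines encoded by Pf4 and Ppbp, the chaperone clusterin, encoded by Clu, and the receptor encoded by Treml1, which reaches the surface on activation. Some of these transcripts are known to be present at low level in stem cells before commitment, which is called platelet priming, and Vwf marks a platelet-biased class of mouse stem cells.

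Megakaryocyte genes are known to be switched on by GATA and ETS factors, so the upstream sequences of the members were searched for both kinds of word. RefSeq (GRCm38.p6) gave a 5′ sequence for 8 of the 10 genes, and Vwf and Clu had no entry. The window was the 250 bases before the gene start. The GATA words were AGATAA and its variant AGATAG together with the words TGATAA and its variant TGATAG, whereas for ETS the word AGGAAG and also the word CGGAAG were used. Both strands were read, and no matches overlapped in the windows of the members. The genes of the receptor complex are printed because their products act as 1 complex, and Pf4 because it was among the members past 1.5-fold. Capitals mark the GATA and ETS words.
Gp1ba (chr11:70638872-70639121, + strand): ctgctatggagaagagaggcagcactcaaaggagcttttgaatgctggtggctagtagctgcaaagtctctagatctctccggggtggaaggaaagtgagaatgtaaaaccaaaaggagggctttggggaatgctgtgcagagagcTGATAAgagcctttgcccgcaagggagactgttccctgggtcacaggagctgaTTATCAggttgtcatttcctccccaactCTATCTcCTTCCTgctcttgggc
Gp1bb (chr16:18622404-18622653, - strand): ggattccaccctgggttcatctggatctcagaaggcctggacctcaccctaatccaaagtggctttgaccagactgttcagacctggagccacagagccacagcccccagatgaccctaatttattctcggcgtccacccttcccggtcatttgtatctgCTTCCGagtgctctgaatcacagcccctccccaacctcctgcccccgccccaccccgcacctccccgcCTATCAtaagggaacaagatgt
Gp9 (chr6:87777820-87778069, + strand): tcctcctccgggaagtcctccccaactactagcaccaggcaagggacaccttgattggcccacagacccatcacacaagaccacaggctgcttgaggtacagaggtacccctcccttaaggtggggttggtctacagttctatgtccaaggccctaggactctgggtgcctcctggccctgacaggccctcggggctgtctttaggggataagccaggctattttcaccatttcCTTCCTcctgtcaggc
Gp5 (chr16:30310782-30311031, - strand): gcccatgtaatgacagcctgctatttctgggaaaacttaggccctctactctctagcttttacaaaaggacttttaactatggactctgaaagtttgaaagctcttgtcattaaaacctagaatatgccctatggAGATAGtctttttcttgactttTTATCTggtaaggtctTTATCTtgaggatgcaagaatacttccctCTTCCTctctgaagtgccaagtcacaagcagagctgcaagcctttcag
Pf4 (chr5:90772185-90772434, + strand): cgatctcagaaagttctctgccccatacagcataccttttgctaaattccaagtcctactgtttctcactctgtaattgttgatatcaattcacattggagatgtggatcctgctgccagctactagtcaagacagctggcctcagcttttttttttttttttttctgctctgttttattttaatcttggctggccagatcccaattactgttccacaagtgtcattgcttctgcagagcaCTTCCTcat

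A GATA word was present in 4 of the 8 windows, Gp1ba, Gp1bb, Gp5 and Gp6, against 26.5% of all 32851 windows of the same length. An ETS word was present in 5, Pf4, Gp1ba, Gp1bb, Gp9 and Gp5, against 39.2% of all windows. Both were present in 3, Gp1ba, Gp1bb and Gp5, against 9.21% of all windows. Gp1ba and Gp5 had 3 GATA words each. In Gp1ba the last of these lay 23 to 18 bases before the start and the ETS word 16 to 11 bases before it. Ppbp and Treml1 had neither kind of word in this window. A match is a description of these letters and not a binding site.

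**Figure D1:**
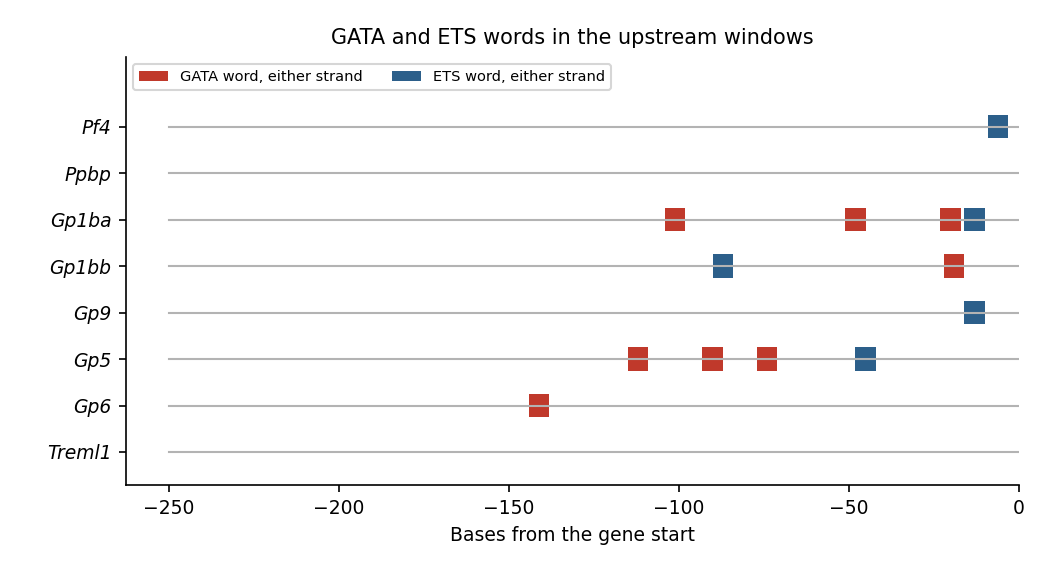
Position of GATA words (red) and ETS words (blue) on either strand in the 250 bases before the start of 8 genes; the x axis gives bases from the start. Gp1ba and Gp5 carry 3 GATA words each, and Ppbp and Treml1 carry neither word.

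Of the 12 probes, 10 were detected on both arrays and 2 on neither, so 9 of the 10 genes were measured on each array. Every measured gene had a higher value on the PAD4-/- array with 75th-percentile scaling, with log2 differences between 0.03 and 0.64, although Gp9 turned to -0.03 with median scaling. Pf4, Clu and Gp1bb were at least 1.5-fold higher on the PAD4-/- array. Vwf and Treml1 lay just under that fold, and Ppbp, Gp5, Gp1ba and Gp9 were within 1.17-fold. The level of a probe is its processed signal over the 75th percentile of its array, on the log2 scale, and the difference is PAD4-/- minus WT. The error of a difference combines the scanner's spot errors of both arrays. It is mostly a fixed term of 0.1 of the signal, and it does not cover variation between mice. In sorted bulk cells, fewer cells of a type and less RNA per cell cannot be told apart.

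**Figure D2:**
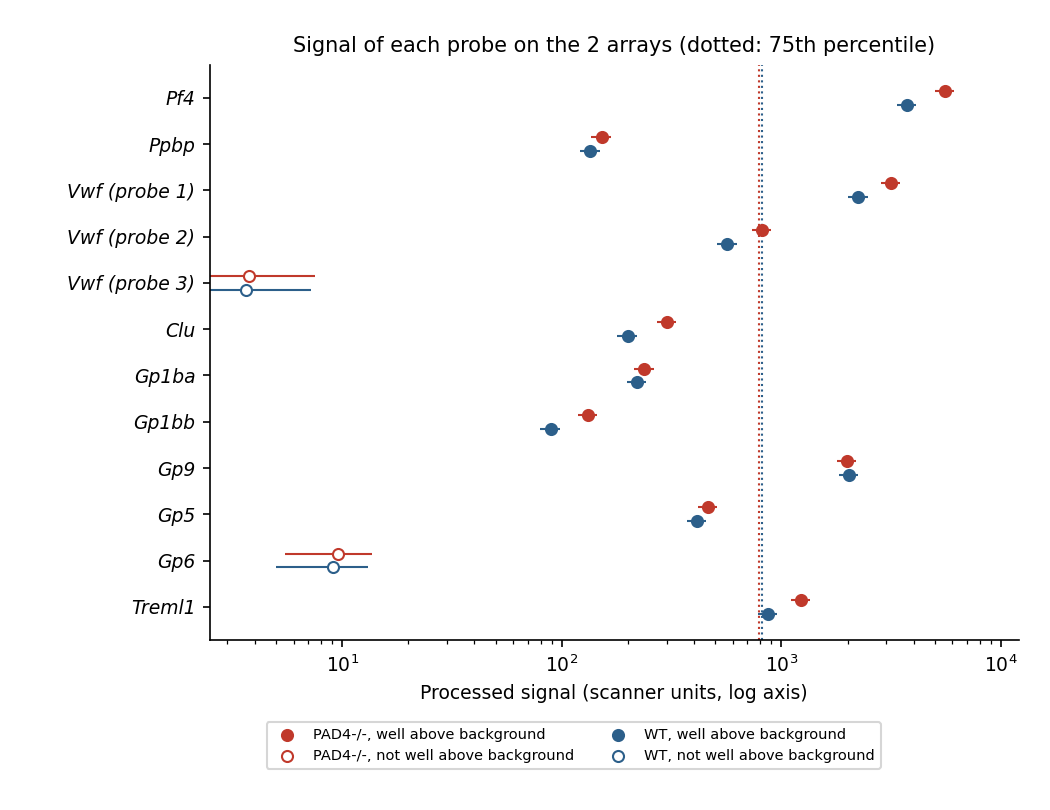
Processed signal of each of the 12 probes (x axis, scanner units, log axis) on the PAD4-/- array (red) and the WT array (blue), with bars for the scanner error. Filled points were well above background. Gp6 and the third Vwf probe were not on either array, and Pf4 had signals of 5553 on the PAD4-/- array and 3719 on the WT array.

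Pf4, the platelet chemokine also known as CXCL4, had a processed signal of 5553 on the PAD4-/- array and 3719 on the WT array (probe at mm8 chromosome 5, 91848449 to 91848508, plus strand). The log2 difference was 0.63 with an error of 0.20, a 1.55-fold higher level on the PAD4-/- array. Its level was 2.82 log2 units above the 75th percentile of the PAD4-/- array and 2.19 above that of the WT array, so the transcript was readily measured in both samples. Ppbp, which encodes the precursor of the platelet chemokine CXCL7, lies next to Pf4 among the protein-coding genes of chromosome 5. Its signal was 152 on the PAD4-/- array and 134 on the WT array (91845144 to 91845203), a difference of 0.22 with an error of 0.21. The difference of Pf4 exceeded that of Ppbp by 0.40, with an error of 0.29, so scanner error alone leaves room for equal differences of these neighbours. The next protein-coding genes on the other sides, Cxcl5 and Cxcl3, also chemokine genes, were not well above background on either array.

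Vwf had 3 probes. The brightest had a signal of 3157 on the PAD4-/- array and 2242 on the WT array (mm8 chromosome 6, 125652152 to 125652211). Its difference was 0.54 with an error of 0.20. The second probe, which starts 693 bases nearer the start of the gene, had 813 on the PAD4-/- array and 568 on the WT array (125651459 to 125651518). Its difference was 0.57 with an error of 0.20, so both probes of the RefSeq transcript gave folds of 1.46 and 1.48. The third probe was designed on the embryo cDNA AK044921 and lies 82.0 kb from the brightest one (125570169 to 125570228). It had 3.77 on the PAD4-/- array and 3.64 on the WT array and was not well above background on either, so it gives no fold. The log2 level of the brightest probe was 2.01 on the PAD4-/- array and 1.46 on the WT array.

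With 75th-percentile scaling, Clu had the greatest difference of the 9 measured genes. Its signal was 300.4 on the PAD4-/- array and 199 on the WT array (mm8 chromosome 14, 64935424 to 64935483), and the difference of 0.64 had an error of 0.21. The difference of Pf4 minus that of Clu was -0.01, with an error of 0.29, so scanner error leaves their order open. With normexp background correction and an offset of 50, Clu had 0.51, short of 1.5-fold, and Pf4 had 0.61. Clusterin is made by many cell types and is not limited to platelets. Treml1 had signals of 1224 on the PAD4-/- array and 872 on the WT array (mm8 chromosome 17, 47832607 to 47832666), a difference of 0.54 with an error of 0.20. Its level was above the 75th percentile on both arrays, at 0.64 on the PAD4-/- array and 0.10 on the WT array.

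The 4 genes of the von Willebrand factor receptor had differences between 0.03 and 0.62, and no pair of them differed by more than 2 scanner errors. Gp9, a small subunit needed for the complex to reach the surface, had a signal of 1994 on the PAD4-/- array and 2026 on the WT array (mm8 chromosome 6, 87745297 to 87745356). Its difference was 0.03 with an error of 0.20. Gp1ba, the subunit that binds von Willebrand factor, had 238 on the PAD4-/- array and 221 on the WT array (mm8 chromosome 11, 70458108 to 70458167), a difference of 0.16 with an error of 0.21. Gp5, the partner most loosely bound in the complex, had 461 on the PAD4-/- array and 412 on the WT array (mm8 chromosome 16, 30228008 to 30228067, minus strand), a difference of 0.21 with an error of 0.20. These 3 subunits thus lay within 1.16-fold on the 2 arrays.

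Gp1bb, which encodes the subunit linked to the Gp1ba product by disulphide bonds, was dim, with 132 on the PAD4-/- array and 88.9 on the WT array (mm8 chromosome 16, 18534577 to 18534636, minus strand), a difference of 0.62 with an error of 0.22. Set against Gp9, the Gp1bb difference was higher by 0.59, with an error of 0.30, and against Gp1ba by 0.46, with an error of 0.30, so scanner error leaves room for equal differences here too. With normexp background correction and an offset of 50, the log2 difference of Gp1bb was 0.40, short of 1.5-fold and within the scanner error of the value above. Septin5 and Tbx1, the protein-coding genes on the sides of Gp1bb, had differences of 0.03 and 0.13. Lrrc15, a leucine-rich repeat gene next to Gp5, had -1.34, and Atp13a3 on the other side of Gp5 had 0.10. Over the 36 pairs of measured members, 2 differed from each other by more than 2 scanner errors: Pf4 and Clu, each against Gp9.

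Gp6, the collagen receptor, was not well above background, with 9.60 on the PAD4-/- array and 9.04 on the WT array (mm8 chromosome 7, 3971840 to 3971899, minus strand). Its raw mean signal was 81.0 over a local background of 47 on the PAD4-/- array and 78.1 over 46 on the WT array. For Ppbp the same raw values were 213 over 46 on the PAD4-/- array and 193 over 46 on the WT array. No difference of Gp6 was detectable at this signal.

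**Figure D3:**
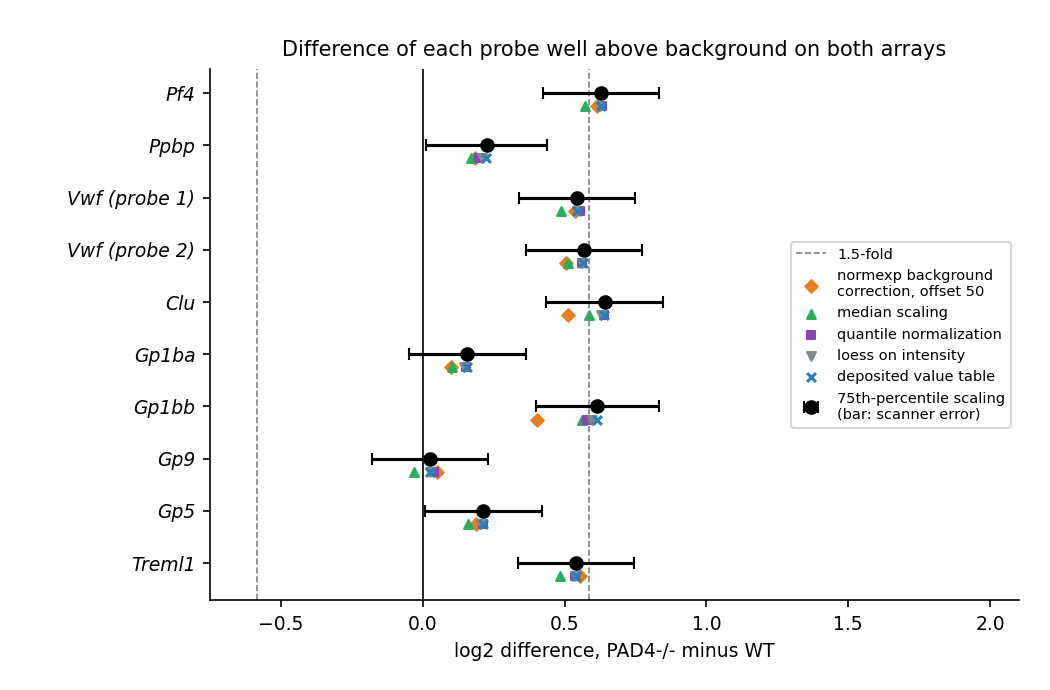
Log2 difference, PAD4-/- minus WT, of the 10 probes detected on both arrays (black, bar: scanner error), with the values under 5 other settings beneath. Pf4, Vwf, Clu, Gp1bb and Treml1 lie between 0.54 and 0.64, and Ppbp, Gp1ba, Gp9 and Gp5 between 0.03 and 0.22.

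Against all genes, the set lay toward higher values on the PAD4-/- array. The members and the lists below were chosen with earlier results of these data known, so their shares are a description and not a test. Of the 9 measured members, 3 (33.3%) were at least 1.5-fold higher, against 2.88% of the 17022 genes detected on both arrays. None was 1.5-fold lower, against 1.87% of all genes, so 3 of 9 passed in either direction, against 4.75%. None was 2-fold higher, against 1.01%, or 2-fold lower, against 0.476%, with 1.49% of all genes in either direction. Over all genes 490 were higher and 318 lower at 1.5-fold, and 426 were higher and 417 lower with median scaling. All 9 were above 0 with 75th-percentile scaling, against 55% of all genes. The median difference was 0.54, with 0.02 over all genes. Over all genes the 5th percentile of the difference was -0.39 and the 95th was 0.44, and 5 of the 9 members lay above the 95th percentile. The same 5, Pf4, Vwf, Clu, Gp1bb and Treml1, exceeded 2 scanner errors. The errors of the measured members lay between 0.20 and 0.22, so this cut nearly repeats the one before. Its share over all genes was not counted. With median scaling no member reached 1.5-fold, and with normexp at an offset of 50 only Pf4 did.

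**Figure D4:**
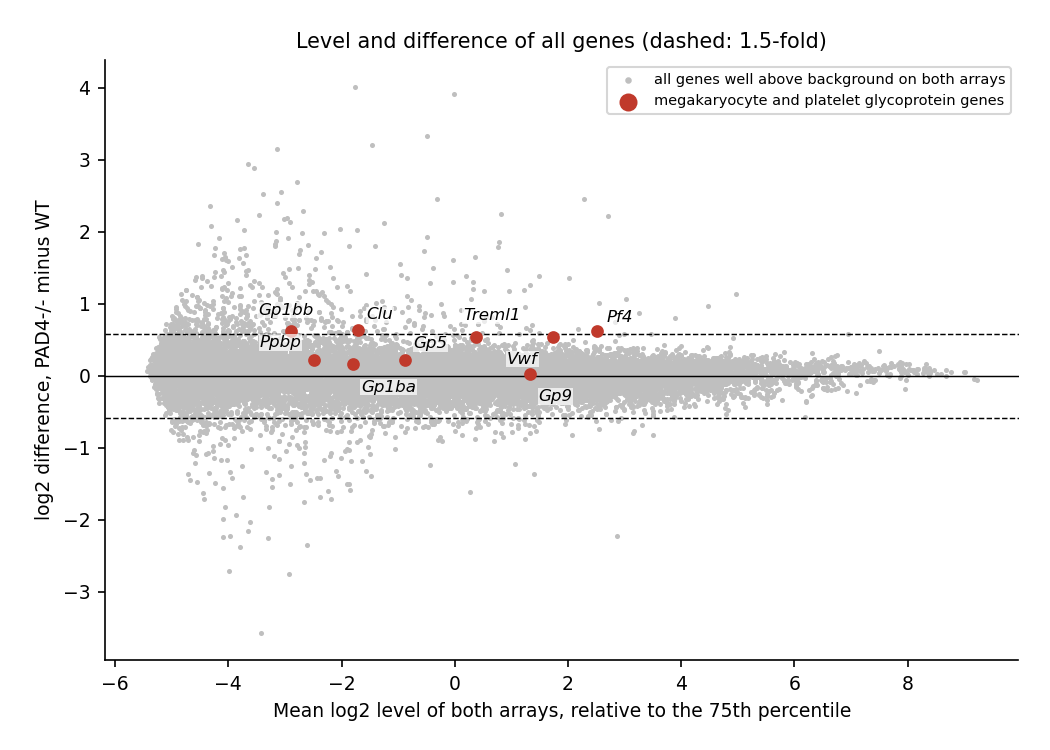
Mean log2 level of both arrays (x axis, relative to the 75th percentile) and log2 difference, PAD4-/- minus WT (y axis), of 17022 genes (grey) and the 9 measured members (red); dashed lines mark 1.5-fold. The members spread over dim and bright levels, and all lie above 0 with 75th-percentile scaling, Gp9 turning to -0.03 with median scaling.

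The other genes listed for megakaryocytes and platelets, not all of them particular to these cells, had a median near 0. Their share past 1.5-fold upward was above that of all genes, and their difference from the members was not tested. Of 85 further megakaryocyte and platelet genes with a probe, 76 were detected on both arrays. On the PAD4-/- array 8 of the 76 (10.5%) passed 1.5-fold upward, against 2.88% of all genes, and 1 downward, against 1.87%. Above 0 were 35 of the 76, against 55% of all genes, and the median was -0.03. A list of 10 measured megakaryocyte and platelet markers, which shares genes with these, had a median of 0.13 with 2 past 1.5-fold upward. Among 15 adhesion and integrin genes the median was 0.01. Itga2b and Itgb3 encode the 2 chains of the fibrinogen receptor and lay on opposite sides of 0. Itga2b had 1324 on the PAD4-/- array and 1847 on the WT array, a difference of -0.43 with an error of 0.20. Itgb3 had 2535 on the PAD4-/- array and 1934 on the WT array, which is 0.44 on the log2 scale, while its dimmer probe gave 0.12.

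Selp, P-selectin of the alpha granule membrane, had 920 on the PAD4-/- array and 518 on the WT array, which is 0.88 on the log2 scale, while its dimmer probe gave 0.37. Cd36, a scavenger receptor, had log2 differences of 1.23 and 1.12 at its 2 probes, from signals of 54.0 on the PAD4-/- array and 23.8 on the WT array at the brighter one. Among 10 signalling receptors the median was -0.09. P2ry1, an ADP receptor, differed by 0.77 and Clec1b, the podoplanin receptor CLEC-2, by 1.02. F2rl3, the thrombin receptor PAR4, was lower at -0.69. With normexp at an offset of 50, Cd36 had 0.47, Clec1b 0.43 and F2rl3 -0.57, each short of 1.5-fold.

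Among 12 alpha granule and secreted protein genes the median was 0.00, with F13a1, coagulation factor XIII A, at 1.61 and Timp3, a protease inhibitor, at 0.74 (0.58 with normexp at an offset of 50). Thbs1, thrombospondin 1, was detected on the PAD4-/- array alone, where 3 of 3 probes were well above background. The brightest had 119 on the PAD4-/- array and 17.7 on the WT array, at least 6.96-fold higher. For this bound and the next, the level on the dim array was taken as the lowest one well above background there, or as the probe's own if that was higher. For Thbs1 it was the probe's own. The bounds are for the processed signal. With normexp at an offset of 50, the log2 difference of this Thbs1 probe was 1.22. None of the 21 genes of signalling and cell shape differed 1.5-fold by its brightest probe detected on both arrays, against 4.75% of all genes. In that group the probes of Alox12, platelet 12-lipoxygenase, disagreed. One probe, named after its values were seen, had 309 on the PAD4-/- array and 17.2, not well above background, on the WT array, at least 18.1-fold higher. With normexp at an offset of 50, the log2 difference of this probe was 2.16. The probe detected on both arrays gave -0.04.

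Of 18 megakaryocyte transcription factor genes all were detected on both arrays, with a median of 0.04. Gata1, which drives erythroid and megakaryocytic genes, had 459 on the PAD4-/- array and 244 on the WT array, a difference of 0.96 with an error of 0.21. Gfi1b, a repressor needed in both lineages, had 4462 on the PAD4-/- array and 2950 on the WT array, a difference of 0.65. Fli1, the ETS factor of megakaryocytes, differed by 0.12, Nfe2, which drives platelet release, by 0.04, and Runx1 by -0.10 with -0.48 at its second probe.

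Among the gene relatives of the members and genes listed with them, values were mixed. Of 12 other CXC chemokine genes, 5 were detected on both arrays, with Cxcl9 at 2.29 and Cxcl12 at -1.51. Treml4, a relative of Treml1, had 219 on the PAD4-/- array and 51.7 on the WT array, a difference of 2.13. Fcgr3, an Fc receptor on the same list as Treml4 but of another family, differed by 1.04, with 0.63 at its dimmer probe. With normexp at an offset of 50, Cxcl9 had 1.56, Cxcl12 -0.93 and Treml4 1.30. Of 6 measured genes that handle von Willebrand factor, none was 1.5-fold different, against 4.75% of all genes.

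Markers of other cells also differed between the arrays. Of 10 erythroid markers 9 were detected on each array, with summed signals of 6736 on the PAD4-/- array and 5636 on the WT array. Hba-a1 made up most of both sums, with 3454 on the PAD4-/- array and 4176 on the WT array. Of the 9, 6 were at least 1.5-fold higher on the PAD4-/- array, against 2.88% of all genes, with Ermap at 2.52, Rhd at 1.99, Eraf at 1.80 and Car1 at 1.73. The 3 that were not were Slc4a1 at 0.05, Hba-a1 at -0.22 and Alas2 at -0.47. With normexp at an offset of 50, Ermap had 1.42 and Rhd 1.35. Mast cell and basophil markers summed to 3697 on the PAD4-/- array and 2085 on the WT array, with 6 of 6 detected on the PAD4-/- array and 5 of 6 on the WT array. Gzmb had 1.98, Hdc 1.39, Fcer1a 0.75 and Mcpt8 0.63. With normexp at an offset of 50, Gzmb had 1.39, and Fcer1a at 0.44 and Mcpt8 at 0.52 were short of 1.5-fold. Vwf is also made by endothelium. Endothelial markers summed to 33644 on the PAD4-/- array and 43217 on the WT array with 7 of 9 detected on each. Most of this sum was Egfl7, with 19340 on the PAD4-/- array and 24445 on the WT array, and Robo4, with 8896.5 and 12861. The median of the 7 was -0.07, with 3 above 0. Cdh5 and Clec14a were not well above background on either array. Flt1 had 0.90, or 0.59 with normexp at an offset of 50, and Plvap -0.89. The 7 macrophage markers, all detected on both arrays, summed to 54735 on the PAD4-/- array and 54412 on the WT array. Most of this sum was Lyz2, with 52969 on the PAD4-/- array and 52689 on the WT array. The median of the 7 was 0.08, with 6 above 0. The 5 mature lineage markers detected on both arrays summed to 25653 on the PAD4-/- array and 27646 on the WT array. Ighm made up most of it, with 24998 on the PAD4-/- array and 27164 on the WT array. The median of the 5 was 0.33, with 4 above 0. The 6 stem cell markers had a median of -0.17 and summed to 32629 on the PAD4-/- array and 39242 on the WT array. The part of erythroid, mast cell and endothelial cells in the member values was not tested.

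**Figure D5:**
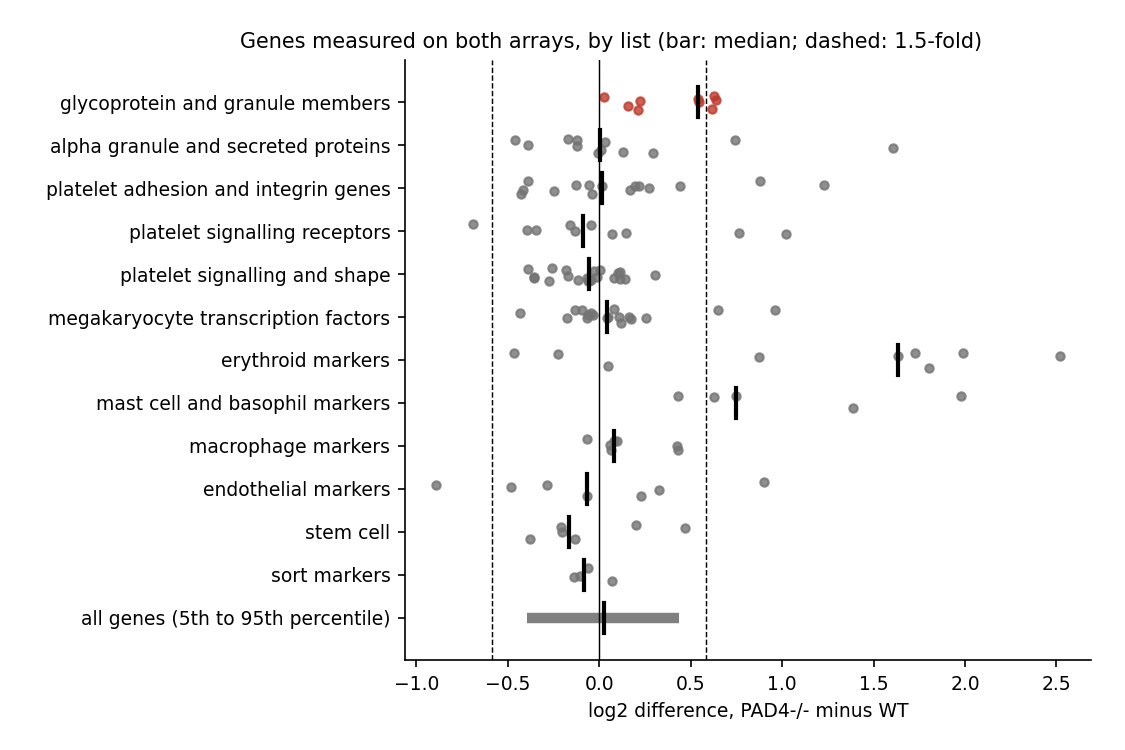
Log2 difference, PAD4-/- minus WT, of each gene detected on both arrays, by list, with the median as a bar; the lowest row gives the 5th to 95th percentile of all genes. The 9 members have a median of 0.54, and the 5 platelet and megakaryocyte function lists plotted have medians between -0.09 and 0.04. The marker list with a median of 0.13 is not plotted. The row of sort markers holds Cd34 and Ptprc beside Kit and Ly6a.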

How the data were processed

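The arrays were of Agilent design 014868, in 1 colour, and were read with Feature Extraction 9.5.3.1, with probes placed on mm8, per the file headers (9.5 per the submitters' processing notes). The scanner files, as deposited, hold spot intensity on a linear scale, after background subtraction and detrending per the file headers. The authors' deposited table holds log2 values. For all 41174 probes it was the log2 median processed signal minus 9.62 for the PAD4-/- array and 9.67 for the WT array, within 0.001, so scale, centring and direction were settled. The column medians were -3.53 and -3.59, in the same order.

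Control and outlier spots were left out, spots of a probe averaged, and signals divided by the 75th percentile of each array, 786 for PAD4-/- and 814 for WT. A probe was detected where 0.5 or more of its spots were well above background. A gene's value came from its brightest probe detected on both arrays. Repeat spots of 1 probe varied with a median SD of 0.05 (PAD4-/-) and 0.06 (WT) log2 units. Names followed the RefSeq table of GRCm38.p6: 24371 probes matched by accession, 6301 by symbol and 2426 by synonym, and 8072 stayed under the deposited name.

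Named genes were all members, up to 4 genes per list and direction past 1.5-fold at their brightest measured probe, 8 fixed megakaryocyte genes and Padi4; neighbouring genes, Xist, Ddx3y, Slc4a1, Hba-a1, Alas2, Thbs1 and Alox12 were added after values were seen. Some genes that this rule names are not reported here. No gene was named as most like a member, since 2 arrays give no measure of likeness. Members and lists were chosen with earlier results of these data known. Scaling, background, filter and fold alternatives were tried, normexp with an offset of 0 having been added after seeing the data. Steps were tested on simulated data. Python 3.11.15, numpy 2.4.6, pandas 2.3.3, statsmodels 0.14.6 and limma 3.58.1 in R 4.3.3 were used.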

Additional observations from a re-analysis of the deposited data

How the results depend on the processing

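No paired analysis was possible because the genotypes have a single array each, and for the same reason none was left out in turn. For the 10 member probes detected on both arrays, all 70 values under 7 alternative settings lay within the scanner error of the reported difference. Median scaling, scaling to detected probes and the deposited values each shift these probes by a single constant smaller than the error. Values under those settings were thus bound to lie within it. The member median lay between 0.38 (no filter on signal) and 0.55. The count of 3 members at least 1.5-fold higher became 1 with normexp at an offset of 50, 0 with median scaling and 0 at 2-fold. Median scaling moves all genes alike, by less than the scanner error, and the members lie close to the threshold. The 8 higher and 1 lower genes of the other megakaryocyte lists became 5 and 0 with normexp at an offset of 50, and 3 and 0 at 2-fold; 13 were higher with no filter on signal, which adds dim probes. Over all 17022 genes, normexp at an offset of 50 gave 203 higher and 131 lower genes at 1.5-fold, against 490 and 318, and 2-fold gave 172 and 81. Detection on at least 1 array gave 962 and 622 of 18179 genes, and no filter on signal gave 2309 and 1395 of 27595 genes. Adding an offset pulls the ratio of 2 dim signals toward 1 by construction. Detection of the members was unchanged by a stricter spot rule and by a signal over 3 times its error. Signal over background limits Gp6, Gp1bb and Ppbp the most among the members.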
